A study of Mus musculus with 9 samples.

Results

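Heat-shock chaperones are the genes by which a cell keeps its proteins folded under stress. Here 10 of them, of 23713 mouse genes with an Ensembl ID in the deposited table, were followed library by library in lung RNA from a model of ventilator-induced lung injury (VILI). They were Hspa1a, Hspa8, Hsph1 and Dnajb1 of the HSP70 system, Hsp90aa1, Hsp90ab1, Stip1 and Chordc1 of the HSP90 system, and Hspd1 and Hspe1 of the mitochondrial chaperonin. The 10 were picked by name, with values of these same libraries already known, so their levels are a description. Counts of members past a P threshold are printed beside the share of all genes past it, and nothing is read from them.

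Each of the 9 libraries held lung RNA of male C57BL/6 mice aged 6 to 8 weeks, 3 libraries per group. Mice of both VILI groups spent 4 hours on the ventilator, with breaths of 20 ml/kg, and were killed directly (VILI 0 hours) or 6 hours after ventilation ended (VILI 6 hours). Control mice were intubated and not ventilated. According to the study's methods, the mice were anesthetized with ketamine and xylazine, the ventilated mice also received pancuronium, and a heating pad served to hold normal body temperature during ventilation. Ventilation, anesthesia time, muscle relaxation and warming therefore cannot be told apart in the comparisons with control. Levels are given as FPKM (fragments per kilobase of exon, scaled to the mapped fragments of the library), summed over all rows of a gene. In whole lung, fewer cells of a type and less RNA per cell cannot be told apart. The library labelled VILI 6 hours replicate 1 stood apart from the other two of its group, as described below, and whether its label is right could not be settled from the values. The counts and medians of the members in comparisons with VILI 6 hours are therefore given with and without it, and the plot of log2 differences shows both for each member.

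As background, HSP70 binds exposed hydrophobic stretches of unfolded proteins. J-domain proteins such as Dnajb1 deliver clients and start ATP hydrolysis, and HSP110 proteins such as Hsph1 exchange the nucleotide. Stip1 (also called Hop) bridges HSP70 to HSP90, which matures kinases and steroid receptors. Hspd1 (HSP60) and its lid Hspe1 (HSP10) fold proteins inside mitochondria. Heat-shock factor 1, encoded by Hsf1, drives many of these genes through heat-shock elements, which are arrays of the unit GAA in alternating orientation. In the cell, some members are made constantly (Hspa8, Hsp90ab1) and others are mainly stress-induced (Hspa1a, Hsph1, Dnajb1).

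The promoter sequences are shown because heat-shock genes share a known regulator. RefSeq windows on GRCm38.p6, from 250 bases before to 50 bases after a start site, were matched for 7 of the 10 members, namely Hspa1a, Hsph1, Dnajb1, Stip1, Chordc1, Hspd1 and Hspe1. A heat-shock element of 3 units (GAA NN TTC NN GAA or TTC NN GAA NN TTC, where N is any base) was present in 4 of the 7, compared with 0.662% of 27025 genes with a window. The second form is the reverse complement of the first, so both strands were covered, and longer runs of units hold overlapping matches. Capitals mark the matched units in the sequences below.
Hspe1: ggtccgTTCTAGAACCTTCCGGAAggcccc
Chordc1: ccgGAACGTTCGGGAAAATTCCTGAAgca
Hsph1: tgcagaTTCTGGAAAGTTCtcctca
Hspa1a: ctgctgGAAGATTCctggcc
Hspa1b: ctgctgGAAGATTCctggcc
The Hspe1 stretch lies at chr1:55088053-55088082 on the plus strand, 89 to 72 bases before the Hspe1 start. Hspd1 starts on the opposite strand next to it, so the same bases form the match 144 to 127 bases before 1 of the 2 Hspd1 starts, and the pair of windows shares 285 bases. The Chordc1 stretch lies at chr9:18292260-18292288 on the plus strand and spans the start site, from -4 to 19. The Hsph1 stretch lies at chr5:149636282-149636306 on the minus strand, 16 to 28 bases after 1 of its 2 starts. A looser element of 2 units (GAA NN TTC or TTC NN GAA) was present in 17.0% of all genes with a window and in 5 of the 7 members, the fifth being Hspa1a. The Hspa1a stretch lies at chr17:34972247-34972266 on the minus strand, 104 to 97 bases before the start. Hspa1b, the neighbouring near-identical copy, carries the same 20 bases at chr17:34959329-34959348, and the 300-base windows of the 2 genes differ at 4 bases. Neither element was found in the windows of Dnajb1 and Stip1. These are matches of letters in short windows, and occupancy by a factor was not measured.

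Hspa1a, the stress-inducible cytosolic HSP70, lies on chromosome 17 from 34969190 to 34972156 and had the widest range of the 10 relative to its level, though not in FPKM. Its level was 2.94, 2.08 and 2.62 FPKM in control. The libraries of VILI 0 hours had 12.2, 5.85 and 37.0 FPKM, and those of VILI 6 hours had 4.84, 1.37 and 2.74 FPKM. All 3 libraries of VILI 0 hours thus lay above every other library, at 4.79, 2.29 and 14.5 times the control mean. VILI 6 hours was spread on both sides of control. The means were 2.55 ± 0.434, 18.4 ± 16.5 and 2.99 ± 1.75 FPKM (SD, n = 3), and the mean of VILI 0 hours rested largely on its replicate 3. Relative to the constitutive Hspa8, Hspa1a was at 0.614 to 1.03% of the Hspa8 level in control and VILI 6 hours and at 5.52, 1.57 and 15.7% in VILI 0 hours. The log2 difference, taken between group means of log2(FPKM + 0.1), was 2.41 (SE 0.62) for VILI 0 hours vs control, 0.07 (SE 0.62) for VILI 6 hours vs control and -2.35 (SE 0.62) between the times. The last 2 were -0.36 (SE 0.64) and -2.77 (SE 0.64) without VILI 6 hours replicate 1.

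Reads of Hspa1a and Hspa1b are hard to separate. Of the 100-base windows along the Hspa1a transcript, 48.6% occur also in another gene, chiefly Hspa1b, so the split of reads between the copies is uncertain. The level of Hspa1b was 4.17, 3.74 and 3.57 FPKM in control, 12.6, 6.41 and 39.5 in the libraries of VILI 0 hours and 7.66, 2.51 and 2.68 in those of VILI 6 hours. The order of the 3 VILI 0 hours libraries was the same as for Hspa1a, and the ratio of Hspa1b to Hspa1a was 0.976 to 1.83 over the 9 libraries.

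Hspa8 (chromosome 9, 40800984 to 40810087), the constitutive HSP70, was the highest of the 10 by its mean over all libraries, 305 FPKM. It was at 311, 291 and 308 FPKM in control, 221, 372 and 236 in the libraries of VILI 0 hours and 470, 224 and 315 in those of VILI 6 hours. Control libraries were close to each other, with a coefficient of variation of 3.56%, whereas both VILI groups had libraries above and below them. The mean of VILI 6 hours was 336 FPKM with all 3 libraries and 269 FPKM without replicate 1. Annotated transcripts of 7 other genes, chiefly Gm15459, share 28.2% of the 100-base windows of Hspa8.

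Hsph1 (chromosome 5, 149614287 to 149636376), an HSP110 that exchanges nucleotide on HSP70, was at 12.1, 9.40 and 11.0 FPKM in control. The libraries of VILI 0 hours had 7.94, 11.8 and 16.5 FPKM, and those of VILI 6 hours had 30.2, 6.64 and 7.42 FPKM. The first library of VILI 6 hours was 2.79 times the control mean and 4.30 times the mean of the other two, which lay below every control library. The sum is the value to read for this gene, since its rows trade places. Of its 7 rows, the one with the highest mean was listed at 0 in control replicate 2 and in VILI 6 hours replicates 2 and 3, where another row stood at 9.39, 6.64 and 7.26 FPKM. With that single row in place of the sum, the log2 difference went from 0.10 to 2.18 in VILI 0 hours vs control and from 0.08 to -1.63 in VILI 6 hours vs control.

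Dnajb1 (chromosome 8, 83608193 to 83612653), the J-domain partner of HSP70, varied least. It was at 10.7, 10.5 and 11.1 FPKM in control, 12.4, 13.1 and 12.6 in the libraries of VILI 0 hours and 11.6, 11.3 and 13.5 in those of VILI 6 hours. Every library of both VILI groups lay above every control library, by 1.04 to 1.25 times the control mean. The log2 differences from control were 0.23 (SE 0.10) and 0.16 (SE 0.10), and -0.07 (SE 0.10) between the times. Centring each library on its median moved the differences from control to 0.32 and 0.27.

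**Figure D1:**
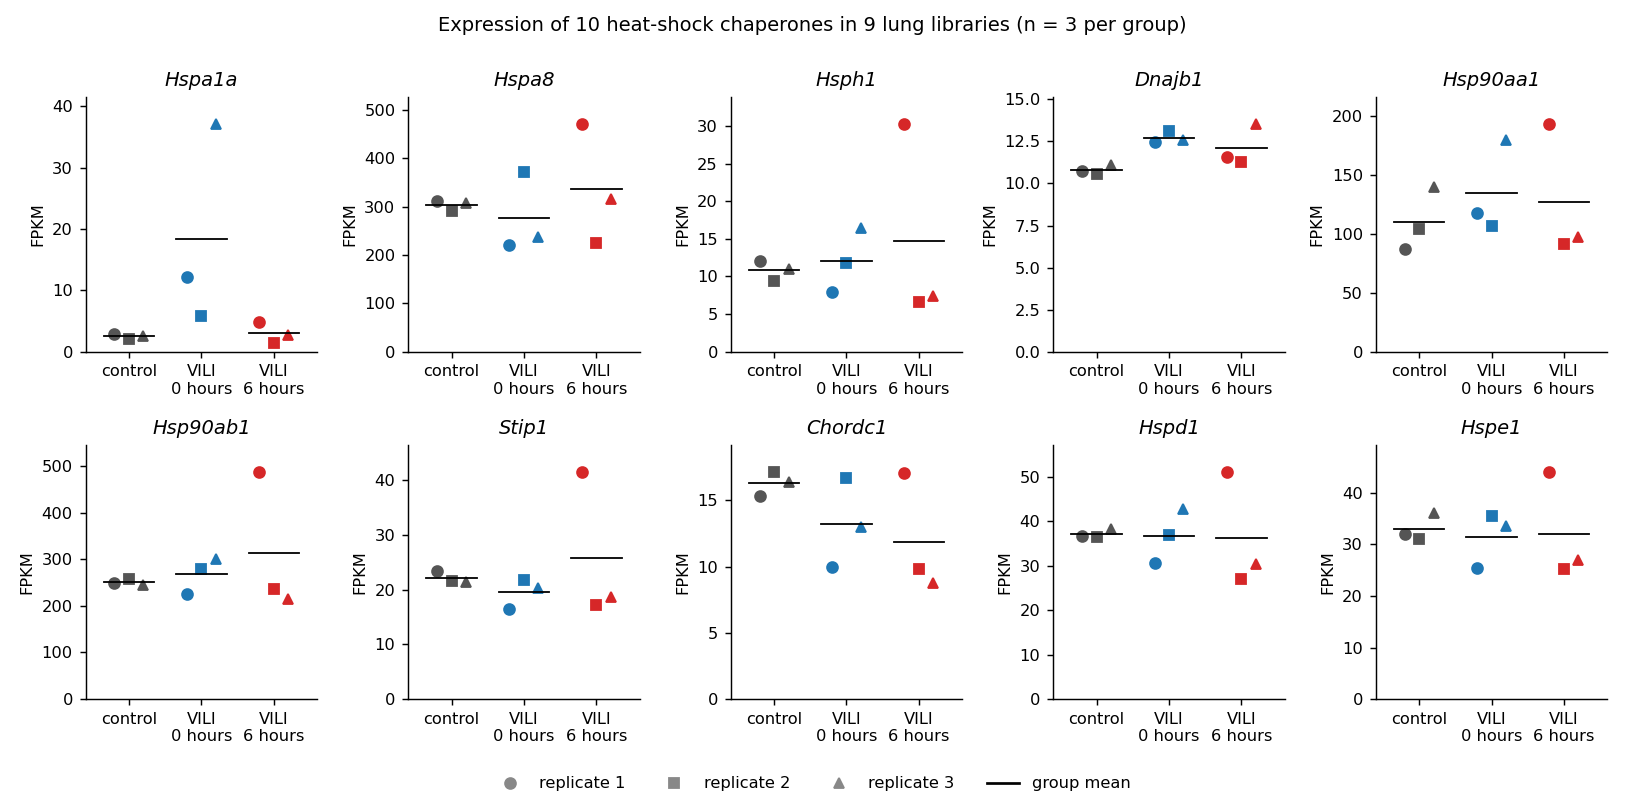
FPKM (vertical axes, from 0) of the 10 chaperones in each of the 9 libraries, by group on the horizontal axis. Marker shape gives the replicate number within a group and the black line the mean of 3 libraries. In 7 of the 10 panels the highest point is VILI 6 hours replicate 1, whereas for Hspa1a it is VILI 0 hours replicate 3 at 37.0 FPKM.

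Of the HSP90 pair, Hsp90ab1 (chromosome 17, 45567775 to 45573271) is the constitutive form. It was at 249, 258 and 244 FPKM in control, 225, 279 and 301 in the libraries of VILI 0 hours and 487, 235 and 216 in those of VILI 6 hours. Hence 8 libraries lay between 216 and 301 FPKM and 1 lay at 487 FPKM, which was 2.16 times the mean of the other libraries of its group. The log2 difference in VILI 6 hours vs control was 0.22 (SE 0.27) with this library and -0.15 (SE 0.13) without it.

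Hsp90aa1 (chromosome 12, 110690605 to 110702728), the inducible form, was at 87.1, 104 and 140 FPKM in control. The libraries of VILI 0 hours had 117, 107 and 180 FPKM, and those of VILI 6 hours had 193, 91.0 and 97.1 FPKM. It was the only member whose control libraries spread by more than 20%, with a coefficient of variation of 24.4%, and the groups overlapped in each comparison. Its level was 0.350 to 0.596 of the Hsp90ab1 level across libraries. Annotated transcripts of 3 other genes, chiefly Gm12346, share 38.0% of its 100-base windows, so part of its signal may be assigned to them or taken from them.

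Stip1 (chromosome 19, 7020702 to 7039967), the bridge between HSP70 and HSP90, was at 23.3, 21.6 and 21.4 FPKM in control. The libraries of VILI 0 hours had 16.4, 21.7 and 20.3 FPKM, and those of VILI 6 hours had 41.5, 17.2 and 18.7 FPKM. One library of VILI 6 hours was thus at 1.88 times the control mean and the others at 0.779 and 0.844 times.

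Chordc1 (chromosome 9, 18292125 to 18317442), an HSP90-binding co-chaperone, had the most negative difference from control. It was at 15.3, 17.1 and 16.4 FPKM in control, 9.93, 16.7 and 13.0 in the libraries of VILI 0 hours and 17.1, 9.82 and 8.73 in those of VILI 6 hours. The log2 difference in VILI 6 hours vs control was -0.51 (SE 0.26), with overlap of the groups because of replicate 1. Without that library it was -0.81 (SE 0.19), and the remaining 2 libraries lay at 0.603 and 0.536 times the control mean.

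Hspd1 and Hspe1 lie head to head on chromosome 1, Hspd1 from 55077835 to 55088243 on the minus strand and Hspe1 from 55088132 to 55091307 on the plus strand. Hspd1 was at 36.8, 36.5 and 38.2 FPKM in control, 30.7, 36.9 and 42.7 in the libraries of VILI 0 hours and 51.1, 27.0 and 30.4 in those of VILI 6 hours. Hspe1 was at 31.9, 31.0 and 36.2 FPKM in the control libraries, 25.4, 35.5 and 33.6 in the libraries of VILI 0 hours and 44.1, 25.2 and 27.0 in those of VILI 6 hours. The 2 genes kept nearly one ratio, 1.04 to 1.27 over the 9 libraries, although the level of Hspd1 ranged from 27.0 to 51.1 FPKM. Annotated transcripts of other genes share 23.4% of the 100-base windows of Hspd1 and some of those of Hspe1, and the 2 genes overlap at their starts.

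By mean FPKM over all libraries, the order of the 10 was Hspa8 (305), Hsp90ab1 (277), Hsp90aa1 (124), Hspd1 (36.7), Hspe1 (32.2), Stip1 (22.4), Chordc1 (13.8), Hsph1 (12.6), Dnajb1 (11.9) and Hspa1a (7.97). The ranges of Hspa8 and Hsp90ab1 overlapped, as did those of Hspd1 and Hspe1, of Stip1 and its neighbours, and of the last 4. Hsp90aa1 was separated from both neighbours in this order, with every library below the lowest of Hsp90ab1 and above the highest of Hspd1. The 10 genes together held 0.175 to 0.354% of the summed FPKM of a library.

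For most members 1 library stood above the others. VILI 6 hours replicate 1 was the highest of the 9 libraries for Hspa8, Hsph1, Hsp90ab1, Hsp90aa1, Stip1, Hspd1 and Hspe1, which is 7 of 10, while 20.5% of all 17131 genes had their highest value there. All 10 members were above the control mean in this library, with a median log2 ratio of 0.73, against 0.01 for all genes. In replicates 2 and 3 of the same group, 1 and 3 members were above the control mean, and the medians were -0.41 and -0.23. In VILI 0 hours, replicate 1 resembled the latter (3 members above, median -0.33), whereas replicates 2 and 3 had 7 members above each (medians 0.12 and 0.21). The summed FPKM of the 10 was 780, 781 and 828 in control, 678, 899 and 893 in VILI 0 hours, and 1350, 649 and 736 in VILI 6 hours.

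**Figure D2:**
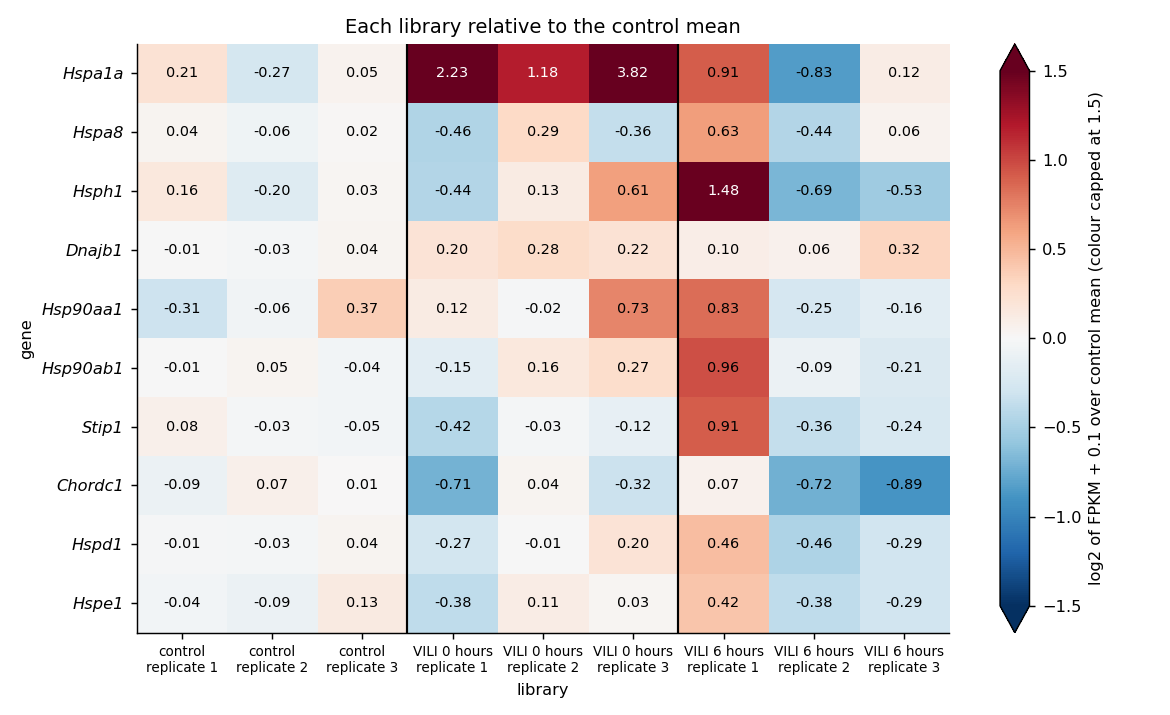
Log2 ratio of FPKM + 0.1 in each library (columns) to the control mean for the 10 chaperones (rows), printed in each cell. Colour is red above and blue below the control mean and is capped at 1.5. VILI 6 hours replicate 1 is above 0 in all 10 rows, and the other libraries of its group are below 0 in 9 and 7 rows.

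Most members varied together. Over the 9 libraries, the 45 pairs of members had a median Pearson r of 0.63 on log2(FPKM + 0.1), with 36 pairs positive. The 28 pairs without Hspa1a and Dnajb1, which were set aside after their values were seen, had a median of 0.80, and of 0.64 when VILI 6 hours replicate 1 was left out. Without that library the 28 pairs ran from -0.26 to 0.95, with 27 positive. The other r values of members, and those of the genes most and least like them, include it. The highest r was 0.96, between Hsph1 and Hspd1, and Hspd1 and Hspe1 reached 0.94. Against the mean standardized profile of the 10, Hsph1 (0.97) and Hspd1 (0.96) were closest, and Hspa1a (0.41) and Dnajb1 (0.06) farthest. Genes at large also leaned toward this profile, with 5787 of 9596 positive and a median r of 0.16. These correlations are descriptions over 9 libraries that share group and library composition.

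Among 9596 other genes with a mean of at least 5 FPKM, the 5 most like this profile were Cct7 (r = 0.97), Sdf2l1 (0.96), Canx (0.96), Calr (0.95) and Hsp90b1 (0.95). Cct7 is a subunit of the cytosolic chaperonin TRiC, and the other 4 act in protein folding in the endoplasmic reticulum. Sdf2l1 was at 18.3 FPKM in VILI 6 hours replicate 1 and at 4.28 to 8.80 FPKM elsewhere, and Calr (calreticulin) was at 253 FPKM there and at 115 to 170 FPKM elsewhere. The 5 genes with the most opposite profile were Acer2 (r = -0.96), C1qtnf6 (-0.94), Tlk1 (-0.92), 2410002F23Rik (-0.92) and Bach2 (-0.91). Acer2, an alkaline ceramidase, was at 47.9 FPKM in VILI 6 hours replicate 1 and at 60.5 to 111 FPKM elsewhere.

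VILI 6 hours replicate 1 also stood apart in genes outside the chaperones. The summed level of 5 erythroid markers (globins and Alas2) was 489 FPKM there and 3225 to 5419 FPKM in the other 8 libraries, and all 5 had their lowest value there. The 4 B cell markers summed to 11.4 FPKM against 17.5 to 56.0 FPKM elsewhere, with 4 of 4 lowest there. The 5 alveolar macrophage markers summed to 620 FPKM against 206 to 407 FPKM, which rested on Chil3 alone (528 FPKM), and the other 4 lay within the range of the other libraries. The 4 T cell markers had their lowest sum there (13.1 FPKM), with 3 of 4 lowest and Cd2 not. The 5 endothelial markers also had their lowest sum there (717 FPKM), but only 2 of 5 were lowest, and Kdr was at its highest (127 FPKM). Fkbp5, an HSP90 co-chaperone of steroid receptors, was at 6.73 FPKM there, while control libraries had 3.53 to 4.62 FPKM and the other VILI libraries 46.5 to 107 FPKM. No gene of the marker lists was at 0 in all libraries, and Ly6g alone was listed at 0 in any (control replicates 1 and 3). The 8 neutrophil markers had a higher sum in every VILI library, this one included, than in control (467 to 1940 FPKM against 48.5 to 56.8 FPKM). The sum in this library, 467 FPKM, was the lowest of the VILI libraries, and the next was 560 FPKM in VILI 0 hours replicate 1. Epithelial markers, which bear on the lung label, summed to 51767 FPKM in this library and to 35012 to 44250 FPKM in the others. Scgb1a1, a secretory marker of the airway, was at 39012 FPKM there and at 22061 to 30538 FPKM elsewhere, and the high sum rested on it alone. Sftpc, a marker of alveolar type II cells, was at its lowest there (9684 FPKM). This library thus lay with the VILI libraries in its neutrophil markers and nearer to control than to the other VILI libraries in Fkbp5. The part of these differences in the chaperone levels was not tested.

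Cirbp and Rbm3, RNA-binding proteins known to be induced by mild cold, were at their lowest sum in the same library. Their sum was 131, 124 and 144 FPKM in control, 240, 118 and 106 in the libraries of VILI 0 hours, and 83.3, 182 and 231 in those of VILI 6 hours. The 3 libraries with the highest sums (VILI 0 hours replicate 1 and VILI 6 hours replicates 2 and 3) were those with the 3 lowest medians of the chaperones. The study's methods aimed at normal temperature during ventilation. Neither gene passed the limma test in any comparison (adjusted p = 0.629 to 0.978), and libraries of each VILI group lay on both sides of control. Measured body temperatures were not used here, and the part of temperature in these levels was not tested.

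**Figure D3:**
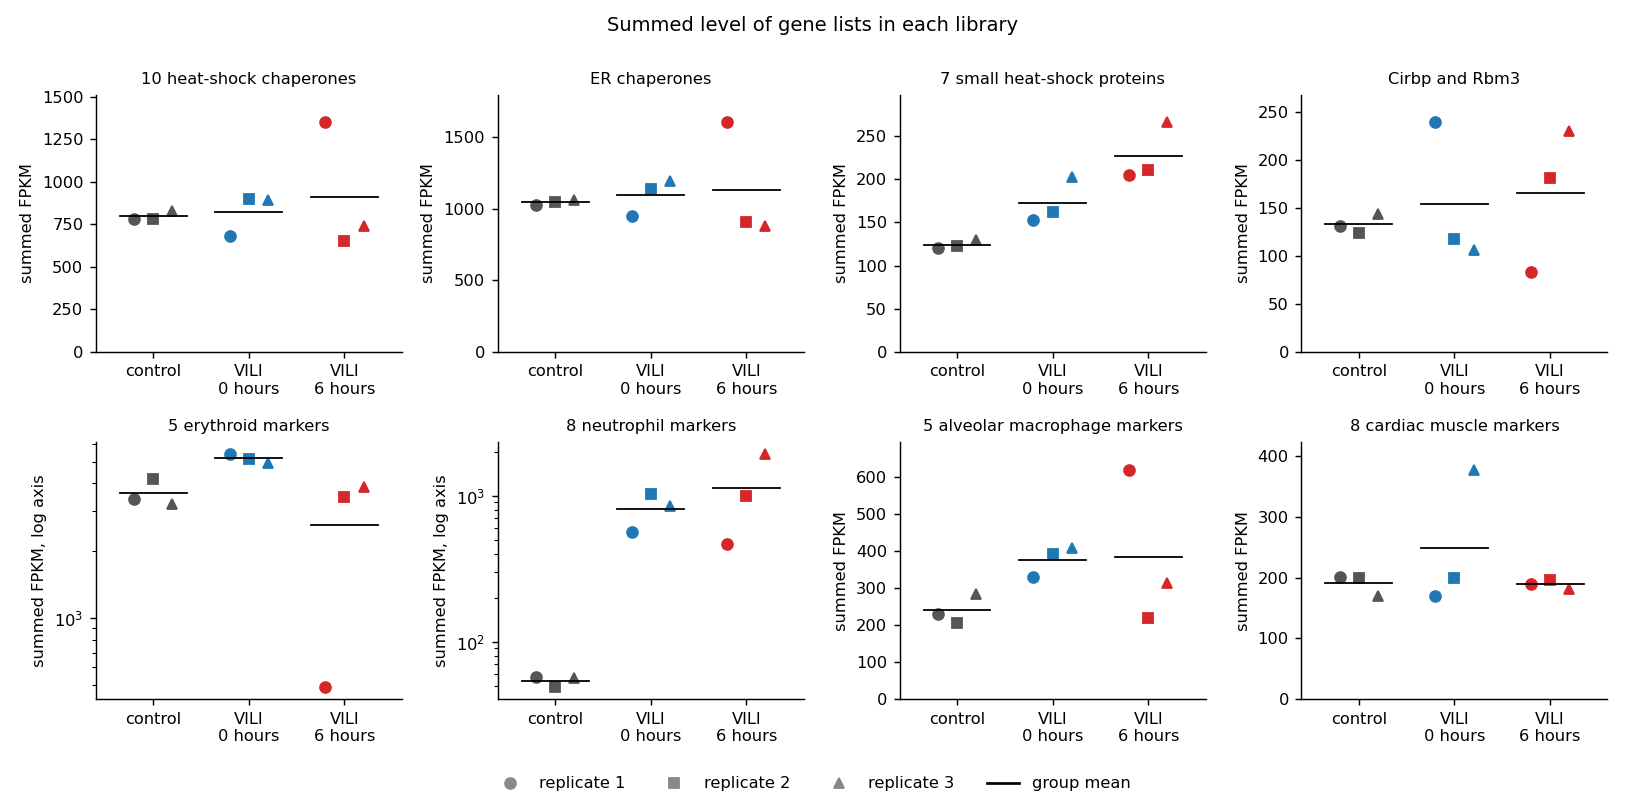
Summed FPKM of 8 gene lists in each library, by group, with marker shape for the replicate and a black line for the group mean; erythroid and neutrophil sums are on log axes. VILI 6 hours replicate 1 is the highest library for the 10 chaperones (1350 FPKM) and the lowest for erythroid markers (489 FPKM).

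For VILI 0 hours vs control, Hspa1a and Dnajb1 were the members with an unadjusted P under 0.05 in limma, both higher, where 17.1% of all 17131 genes were called (7.02% higher and 10.1% lower). None passed at an adjusted p under 0.05 (background 0.304%). The same 2 of 10 had groups without overlap, against 12.3% of genes higher and 23.2% lower. The median log2 difference of the 10 was 0.03, beside -0.08 for all genes, and 5 members were higher and 5 lower. Without VILI 6 hours replicate 1, which enters this comparison through the shared estimate of spread, the same 2 members had an unadjusted P under 0.05 (background 24.7%) and 1 member an adjusted p under 0.05 (background 7.93%). Nothing is read from these counts, since the members were chosen on the same libraries.

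For VILI 6 hours vs control, no member had an unadjusted P under 0.05 or an adjusted p under 0.05 in limma, where 21.0% (7.91% higher and 13.1% lower) and 0.753% of all genes were called. Dnajb1 alone did not overlap between the groups (9.53% of genes were higher and 15.9% lower without overlap). The median of the 10 was 0.08, beside -0.10 for all genes. Centring the libraries on their medians brought the all-gene value to 0.01 and the median of the 10 to 0.19. These values turned on 1 library. Without VILI 6 hours replicate 1, 9 of the 10 were below control, the median was -0.32 (all genes -0.16), and 5 members were lower at an unadjusted P under 0.05 (Chordc1, Stip1, Hspd1, Hsph1 and Hspe1), where 28.2% of genes were. Of these 1 had an adjusted p under 0.05 (background 25.5%), and 6 did not overlap with control on the lower side (background 39.8%). Nothing is read from these counts either.

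For VILI 6 hours vs VILI 0 hours, Hspa1a was the 1 member with an unadjusted P under 0.05, lower at 6 hours, where 10.3% of genes were called (5.02% higher and 5.25% lower), and no gene of the 17131 had an adjusted p under 0.05. It was also the 1 member without overlap (6.19% of genes were higher and 6.55% lower without overlap). The median of the 10 was -0.04 (all genes -0.03). Without VILI 6 hours replicate 1, all 10 were lower at 6 hours, with a median of -0.30 (all genes -0.09), and 4 were lower at an unadjusted P under 0.05 (Chordc1, Hspd1, Hsph1 and Hspa1a), where 15.0% of genes were. Without it 5 members lay below VILI 0 hours with no overlap (background 22.4%). As above, these counts only describe members chosen on the same libraries.

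**Figure D4:**
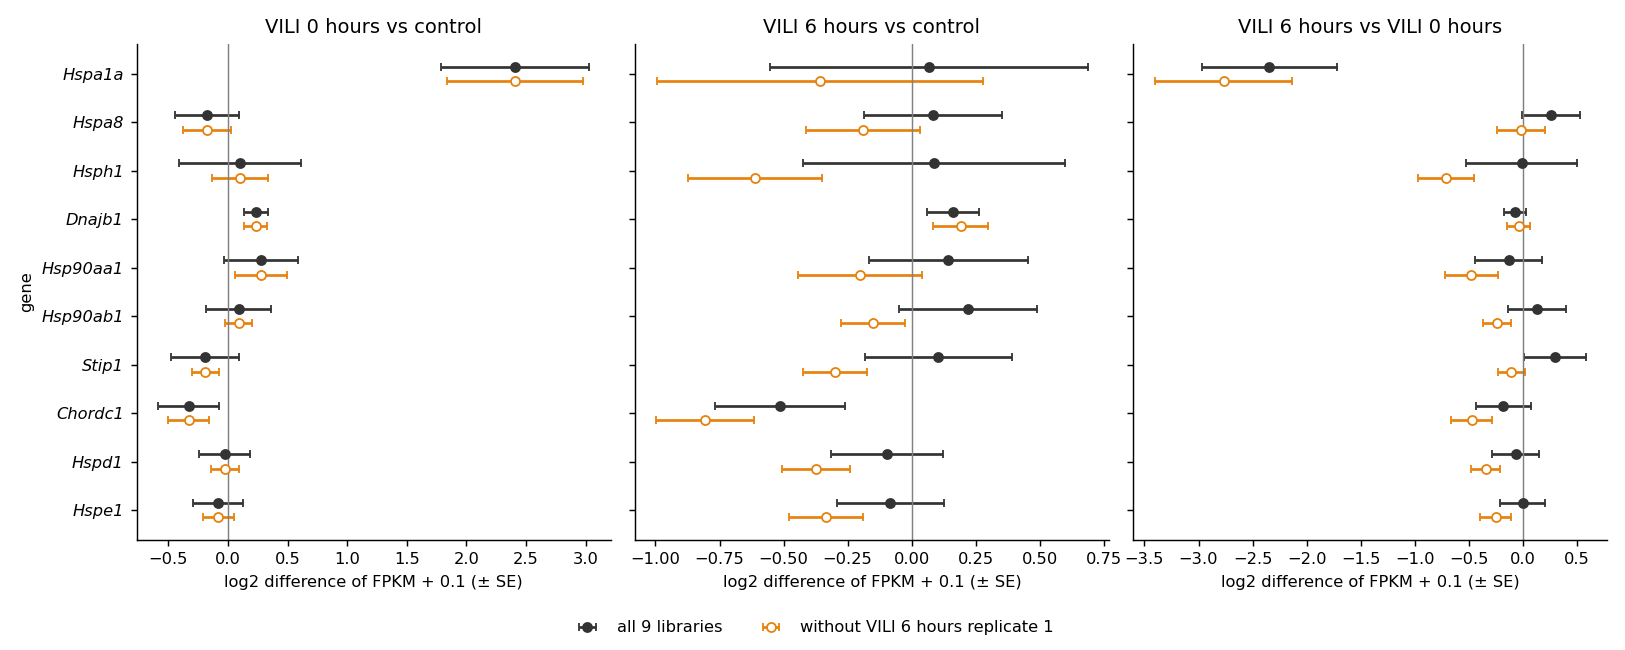
Log2 difference of FPKM + 0.1 with its standard error (horizontal axes, scaled separately) for the 10 chaperones in the 3 comparisons. Filled points use all 9 libraries and open points leave out VILI 6 hours replicate 1. In VILI 6 hours vs control the open points of 9 genes lie below 0 and that of Dnajb1 above it.

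The surrounding chaperone network was read from 9 lists of 93 further genes, of which 92 passed the filter of a mean of 0.1 FPKM. In VILI 0 hours vs control, 13 of the 92 were called at an unadjusted P under 0.05 (10 up and 3 down), or 14.1%, near the 17.1% of all genes, and none at an adjusted p under 0.05 in limma. In VILI 6 hours vs control 11 were called (8 up and 3 down), or 12.0% beside 21.0% of all genes, and 1 of them, Hspb1, had an adjusted p under 0.05. Between the times 7 were called (3 up and 4 down), or 7.61% beside 10.3% of all genes, and none after adjustment. With median-centred libraries the split was 15 up against 2 down in each comparison with control, and 5 up against 3 down between the times. When VILI 6 hours replicate 1 was left out, the 3 counts were 21, 39 and 27, or 22.8, 42.4 and 29.3%, beside 24.7, 40.5 and 23.2% of all genes. Among them 9, 27 and 23 of the 92 were down. Over all genes, 28.2% were called down in VILI 6 hours vs control and 15.0% between the times. After adjustment the 3 counts were 4, 19 and 0, beside 7.93, 25.5 and 2.08% of all genes.

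The small heat-shock proteins, ATP-independent holders of unfolded proteins, had 4 of 6 tested genes called in each comparison with control, the same genes each time (Hspb1, Hspb7 and Hspb8 up, Hspb2 down). The lists were chosen with earlier results of these data known, so their ranking is only a description. For this list the share called was 66.7%, beside 17.1 and 21.0% of all genes. With all 9 libraries this was the largest share of the 9 lists, but without VILI 6 hours replicate 1 the heat-shock factor and ubiquitin list had a larger one in VILI 6 hours vs control (83.3% beside 66.7%). Without that library 5 of the 6 small heat-shock proteins were called in VILI 0 hours vs control, Hspb6 being added as up. Those at a limma adjusted p under 0.05 went from 0 to 2 in that comparison. In VILI 6 hours vs control they went from 1 to 4, while 7.93 and 25.5% of all genes were at that level. Hspb1 (HSP27) was at 41.2, 43.3 and 48.9 FPKM in control, 65.9, 64.3 and 90.9 in the libraries of VILI 0 hours and 108, 109 and 177 in those of VILI 6 hours. The 3 groups did not overlap, and replicate 1 of VILI 6 hours was in place with its group. Its log2 difference was 0.71 (SE 0.20, limma adjusted p = 0.133) for VILI 0 hours vs control, 1.52 (SE 0.20, limma adjusted p = 0.0204) for VILI 6 hours vs control and 0.81 (limma adjusted p = 0.263) between the times. Hspb8, a partner of the co-chaperone Bag3, was at 16.4 to 17.9 FPKM in control, 28.5 to 39.3 in the libraries of VILI 0 hours and 24.6 to 47.0 in those of VILI 6 hours (log2 difference 0.996 and 1.06, limma adjusted p = 0.0767 and 0.0596). Hspb2, expressed mainly in muscle, was at 7.11 to 8.51 FPKM in control, 5.31 to 6.42 in the libraries of VILI 0 hours and 3.98 to 6.83 in those of VILI 6 hours (log2 difference -0.45 and -0.62, limma adjusted p = 0.278 and 0.137). Hspb7, not covered by the naming rule, was named after its values were seen. Cardiac muscle markers, which bear on Hspb7 and Hspb2, summed to 170 to 202 FPKM in 8 libraries and to 378 FPKM in VILI 0 hours replicate 3, where Hspb7 was at its highest (8.68 FPKM). The control libraries had 2.75 to 3.41 FPKM of Hspb7, and those of VILI 6 hours had 3.98, 8.30 and 7.89, where the cardiac sums were 189, 196 and 182 FPKM. Hspb2 was at 5.40 FPKM in the library with the sum of 378 FPKM. The part of cardiac muscle in these levels was not tested.

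**Figure D5:**
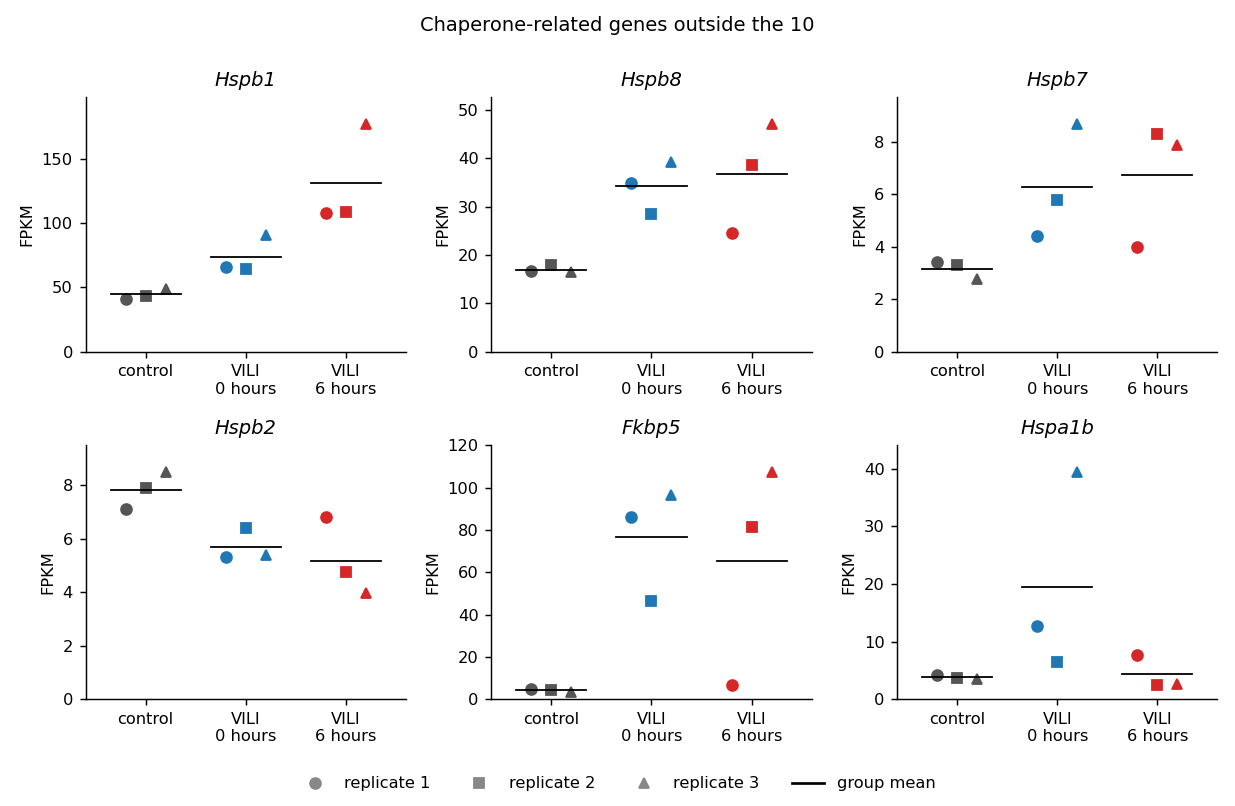
FPKM (vertical axes, from 0) of 6 related genes in each library, by group, with marker shape for the replicate and a black line for the group mean. Hspb1 is higher in VILI 6 hours (108 to 177 FPKM) than in every other library, whereas Fkbp5 in VILI 6 hours replicate 1 (6.73 FPKM) is near the control libraries.

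In the HSP70 system, 1 of 9 other HSP70 and HSP110 genes was called in VILI 0 hours vs control, the copy Hspa1b (log2 difference 1.92, SE 0.61, limma adjusted p = 0.167). None was called in VILI 6 hours vs control, where Hspa1b had a difference of -0.03, and between the times Hspa12b was called up (0.62) and Hspa1b down (-1.95). Of 11 J-domain genes 1 was called, Dnajc5, a chaperone of synaptic vesicles and other secretory organelles (0.43 in VILI 0 hours vs control, limma adjusted p = 0.192). With its leading row in place of the sum, Dnajc5 was at -0.21. Of 9 exchange factors and partners of HSP70, Bag3 was called up in VILI 6 hours vs control (0.33, SE 0.09, limma adjusted p = 0.120), at 24.4 to 26.8 FPKM against 18.8 to 21.3 FPKM. These counts depended on 1 library, and so did the share of all genes called. When VILI 6 hours replicate 1 was left out, that share rose from 17.1 to 24.7% for VILI 0 hours against control. For VILI 6 hours against control it rose from 21.0 to 40.5%. That library enters the former comparison only through the shared estimate of spread. The HSP70 and HSP110, J-domain and exchange factor lists then had 33.3, 18.2 and 11.1% called in the former. In the latter they had 22.2, 27.3 and 33.3%. Without VILI 6 hours replicate 1, the calls in VILI 0 hours vs control went from 1 to 3 for the HSP70 and HSP110 genes (Hspa2 and Hspa12b down), from 1 to 2 for the J-domain genes (Dnajb14 down) and from 0 to 1 for the exchange factors and partners (Hspbp1 down). In VILI 6 hours vs control, Hspa4 and Hspa2 were then called down among the 9 HSP70 and HSP110 genes, Dnajc5 and Dnajb5 up and Dnajb14 down among the J-domain genes, and St13 and Hspbp1 down beside Bag3 up among the exchange factors and partners.

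Among 13 HSP90 co-chaperones, Fkbp5 was called up in both comparisons with control. Its log2 difference was 4.10 (SE 0.86, limma adjusted p = 0.0740) in VILI 0 hours and 3.20 (limma adjusted p = 0.107) in VILI 6 hours, and the latter was 4.46 (limma adjusted p = 0.000155) without VILI 6 hours replicate 1. In that fit 6 other co-chaperones were called down in VILI 6 hours vs control (Cacybp, Ahsa1, Sugt1, Ttc4, Ppid and Fkbp4). With Fkbp5 these are 53.8% of the list, beside 40.5% of all genes. Tomm34, a co-chaperone of mitochondrial import, was called down in VILI 0 hours (-0.24, limma adjusted p = 0.291). Of 14 TRiC and prefoldin genes, none was called in either comparison with control, and Vbp1, a prefoldin subunit, was called down (-0.25) and Cct6a up between the times. Leaving out VILI 6 hours replicate 1 gave 5 genes called down in VILI 6 hours vs control (Cct4, Cct7, Pfdn1, Pfdn4 and Pfdn6) and 6 down between the times, and Cct6a was then not among the calls. These are 35.7 and 42.9% of the list, beside 40.5 and 23.2% of all genes. Of 9 mitochondrial chaperones and proteases, Clpx was called up in VILI 0 hours (0.35), and Hscb and Trap1 were called down in VILI 6 hours (Hscb -0.49, Trap1 -0.37). Hscb was also called down between the times (-0.56). With that library left out, 3 of the 9 were called in VILI 0 hours vs control (Clpx and Grpel2 up, Trap1 down) and 5 in VILI 6 hours vs control, 2 up (Clpx and Grpel2) and 3 down (Dnaja3, Trap1 and Hscb). These are 33.3 and 55.6% of the list, beside 24.7 and 40.5% of all genes. With all 9 libraries, 17.1 and 21.0% of all genes were called in the comparisons with control, and 10.3% between the times.

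The 15 chaperones of the endoplasmic reticulum had 1 call in each comparison with all 9 libraries. Without VILI 6 hours replicate 1 they had 5 in VILI 6 hours vs control, 4 of them down (Pdia3, Pdia4, Pdia6 and Serpinh1), and 7 between the times, all down. These are 33.3 and 46.7% of the list, beside 40.5 and 23.2% of all genes. Dnajb9, a J-domain partner of BiP, was up in VILI 0 hours vs control (0.30, SE 0.08, limma adjusted p = 0.125) and down between the times (-0.33, limma adjusted p = 0.263), and Dnajb11 was up in VILI 6 hours vs control (0.31). The median log2 ratio of these 15 genes to control was 0.71 in VILI 6 hours replicate 1, next to 0.73 for the 10 members. It was between -0.17 and 0.14 in the other VILI libraries. Hspa5, which encodes BiP, was at 220 FPKM in that library and at 95.4 to 124 FPKM in the other 8.

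Hsf1, the main heat-shock factor, was at 14.4, 12.9 and 12.4 FPKM in control, 11.0, 11.9 and 11.8 in the libraries of VILI 0 hours and 18.0, 11.9 and 9.35 in those of VILI 6 hours. With all 9 libraries it passed no test (limma adjusted p = 0.673, 0.865 and 0.883), and its highest value was again in VILI 6 hours replicate 1. Without that library it was called down in VILI 6 hours vs control (-0.32, limma adjusted p = 0.0906), as were Hsf2 and Hsf4. Ubb, which encodes a polyubiquitin precursor, was called up in both comparisons with control. It was at 240 to 243 FPKM in control, 287 to 320 in the libraries of VILI 0 hours and 262 to 330 in those of VILI 6 hours (log2 difference 0.33 and 0.28, limma adjusted p = 0.172 and 0.180). Hsf4 was called down in VILI 0 hours (-0.66, limma adjusted p = 0.260).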

How the data were processed

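Total lung RNA of 9 mice was sequenced by the authors, and the deposited FPKM values per transcript row were used. Per the labels and the study's methods, the authors aligned reads to GRCm38 with TopHat2 2.0.9 and Bowtie2 2.0.6 and estimated FPKM with Cuffdiff 2.1.1. The table holds 60108 rows. Gene IDs were matched to GENCODE M21 (23503 of 23713), and FPKM were summed per gene; 3729 rows of assembled loci were not used. Sources differ on the library kit and sequencer. Column sums were 366360 to 388459 FPKM. FPKM hold no counts, and the read totals listed in the study's supplement were not used here, so no counting interval is given. FPKM per gene depend on how Cuffdiff shared reads among rows and copies.

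Differences were fitted with limma 3.58.1 in R 4.3.3 (trend) on log2(FPKM + 0.1) over 17131 genes with a mean FPKM of at least 0.1, in 1 fit of 9 libraries with group as the factor, with Benjamini-Hochberg adjustment over all genes tested. The procedure was tested on simulated data. Called means that P, before adjustment, was under 0.05, as in the study. Each library came from a different mouse, killed at its time point, so no animal recurs across groups. Nothing in the sources says whether same-numbered libraries were handled together. The p-values rest on the spread between these libraries. All 10 members passed the filter. The members and all gene lists were chosen with earlier results of these data known. Named were the 10 members, Hspa1b, Hsf1, Cirbp and Rbm3; per list and comparison the largest rise and fall with a P under 0.05, a mean of at least 1 FPKM and no overlap of groups; and the 5 genes most and least like the members' mean profile. Genes that make up a count of calls were named after their values were seen. One gene of the lists is counted but not reported here. Promoter windows came from RefSeq (GRCm38.p6). Python 3.11.15, pandas 2.3.3, numpy 2.4.6 and matplotlib 3.10.9 were used. Alternatives tried were other pseudocounts, filters, centring, single rows, pairs of groups, a replicate block, no trend, and each library left out.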

Additional observations from a re-analysis of the deposited data

How the results depend on the processing

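Without 1 library at a time, the count of related chaperone genes called ran from 9 to 21 in VILI 0 hours vs control, from 8 to 39 in VILI 6 hours vs control and from 5 to 27 between the times, the highest each time without VILI 6 hours replicate 1. The count was 21 in VILI 0 hours vs control with only the 6 libraries compared, and 17 in VILI 6 hours vs control with median-centred libraries. The other settings kept the counts within 1.5 times. The median log2 difference of the 10 members ran from -0.11 to 0.15, from -0.32 to 0.34 and from -0.30 to 0.13 without 1 library at a time, less than the SD between libraries, so its sign is not settled in any comparison. With a replicate block the counts were 13, 10 and 7 and the medians 0.03, 0.08 and -0.04; same-numbered libraries did not deviate together (r = -0.25 to 0.03), so the block was not used.

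Of 23 calls of named genes, 15 held under every setting and 8 were lost under at least 1 (Clpx, Dnajc5, Hsf4, Hspb2 and Tomm34 in VILI 0 hours vs control, Hscb in 2 comparisons and Vbp1). Among the 23, only Hspb1 in VILI 6 hours vs control had a limma adjusted p under 0.05 (0.0204), and that call held. Dnajc5 reversed to -0.21 with the row of highest mean. With median-centred libraries 2 uncalled differences in VILI 6 hours vs control changed sign, Hspa1b to 0.0754 and Hsf1 to 0.0398. Without 1 library at a time, differences of named genes not called with all 9 libraries changed sign: Hspa1b from -0.54 to 0.25 and Hsf1 from -0.32 to 0.15 in VILI 6 hours vs control (called at -0.32, without VILI 6 hours replicate 1), Hsf1 from -0.13 to 0.34 between the times, Cirbp from -0.26 to 0.52 in VILI 0 hours vs control and from -0.19 to 0.59 between the times, and Rbm3 from -0.25 to 0.31, from -0.24 to 0.61 and from -0.31 to 0.54 in the 3 comparisons. Of the members' 30 differences, 19 took both signs when 1 library was left out, 3 of 10 in VILI 0 hours vs control and 8 of 10 in each of the other comparisons (Hsph1 from -0.15 to 0.37, -0.61 to 0.47 and -0.71 to 0.37). The causes were not tested. The 3 libraries per group limit every value, and counting error at the depth of each library could not be taken from FPKM.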
